A study of Mus musculus with 6 samples.

Results

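The mouse nonclassical class I and MILL genes followed here were 8 in number: the MILL genes Mill1 and Mill2, the nonclassical H2 genes H2-T23, H2-Q4, H2-Q7 and H2-M3, and the antigen-presenting genes Cd1d1 and Mr1. They were taken by gene symbol, and all 8 were found among the 18437 genes measured, of which 13167 passed the filter on low values. The genes were selected on their TPM in these same LIGHT and control libraries, so the differences between the groups are a description and are given without p-values. Where calls of a fit across all genes are counted for them, the counts are a description too. The first group is tumours grown in the tongue of C57BL/6 mice from 4MOSC1-LIGHT cells, a 4MOSC1 line overexpressing the TNF family cytokine LIGHT. The second is tumours grown the same way from 4MOSC1-con control cells. 4MOSC1 is a mouse oral squamous cell carcinoma line, and both groups were raised in mice of the same strain with the same injection. The labels name no promoter for the LIGHT construct, do not say whether each line is 1 clone, and do not link libraries to mice. The spread between libraries may therefore be technical. There were 3 LIGHT and 3 control libraries of bulk tumour RNA depleted of ribosomal RNA.

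Class I molecules are heavy chains that fold against an antigen or a receptor at the cell surface, most of them with beta-2 microglobulin, the product of B2m. The classical chains H2-K1 and H2-D1 show cytosolic peptides to CD8 T cells. The nonclassical chains are less variable and take up narrower cargo. H2-T23 encodes Qa-1, which shows a leader peptide of classical class I chains to the CD94/NKG2A receptor of natural killer and T cells. H2-Q7 encodes Qa-2, which can be held in the membrane by a lipid anchor. H2-M3 binds peptides that begin with formylmethionine. Cd1d1 encodes the CD1d chain that shows lipids to natural killer T cells, and Mr1 encodes the chain that shows small metabolites of vitamin synthesis to mucosal-associated invariant T cells. Mill1 and Mill2 encode lipid-anchored chains that bind beta-2 microglobulin and reach the surface without the TAP peptide transporter. They lie outside the MHC.

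The levels are TPM, a share of transcripts corrected for gene length, so genes can be set side by side, but the sequencing depth behind them is unknown. The introduced gene, Tnfsf14, averaged 25.3 ± 1.28 TPM in LIGHT tumours and 0.66 ± 0.13 TPM in control tumours (SD, n = 3 each). Epithelial identity was present in both groups, with the 7 squamous markers from Krt5 to Dsg3 summing to 12155 to 15933 TPM in LIGHT libraries and 16142 to 18703 TPM in control libraries. Most of that sum was Krt14, at a mean of 8916 TPM in LIGHT and 11421 TPM in control tumours, and Krt5, at 4906 and 4875 TPM. Krt14 and Trp63 lay below in every LIGHT library and Epcam above. In a limma fit across all tested genes, 0 of the 7 had an adjusted p under 0.05. In bulk tissue, fewer cells of a type and less RNA per cell cannot be told apart.

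Class I promoters are known to carry an NF-kB element beside an interferon-responsive element, so stretches upstream of the transcription starts are shown for the H2 genes that hold one and for the MILL pair. RefSeq promoters of build GRCm38.p6 matched 7 of the 8 genes, all but Cd1d1. Capitals mark matches to an NF-kB motif (GGGA, any base, T, any pair of bases, CC) or to TTCNNNGAA (GAS, a STAT site), searched on both strands of the 250 bases before each start. The 3 stretches of H2 genes below lie on chromosome 17 and are 150 bases long. They cover chr17:35379402-35379551 for H2-Q4, chr17:35438940-35439089 for H2-Q7 and chr17:37270019-37270168 for H2-M3, all on the plus strand.
H2-Q4: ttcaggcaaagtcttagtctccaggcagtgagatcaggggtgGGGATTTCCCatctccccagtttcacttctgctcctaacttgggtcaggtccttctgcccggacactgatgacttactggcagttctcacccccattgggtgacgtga
H2-Q7: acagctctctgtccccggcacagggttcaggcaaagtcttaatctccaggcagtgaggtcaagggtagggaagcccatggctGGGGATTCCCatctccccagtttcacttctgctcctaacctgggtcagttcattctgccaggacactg
H2-M3: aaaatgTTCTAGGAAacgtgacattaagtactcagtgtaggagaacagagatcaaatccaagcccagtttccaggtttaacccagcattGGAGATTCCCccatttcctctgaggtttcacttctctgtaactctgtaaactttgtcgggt

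H2-Q4, H2-Q7 and H2-M3 each held 1 NF-kB match, a motif present in 3.44% of all 32851 promoters of that length. H2-M3 alone of the 7 held a GAS match (7.02% of promoters). H2-T23 held 1 match to an interferon-stimulated response element (ISRE: GAAA, any pair of bases, GAAA), at bases -124 to -115, where -1 is the base before the start, a motif present in 2.98% of promoters. The H2-T23 stretch searched is chr17:36032702-36032951 on the minus strand, but GENCODE lets this gene reach base 36032855. By GENCODE its matches thus lie inside the gene, and less sequence before the start was searched than for the other H2 genes. H2-Q4 and H2-Q7 shared an unbroken run of 34 bases that begins inside the NF-kB match, and only these 2 of the 32851 promoters held it. Only the exact letters of each motif were searched. Genes without a match may still hold another form of an NF-kB or GAS site or of an interferon-responsive element. An 11-base run, gtttcacttct, was common to H2-Q4, H2-Q7 and H2-M3 and was found in 0.0517% of promoters. It lay shortly after the NF-kB match in each of these genes, and whether it is such an element was not tested. That run was noticed after the sequences were seen.

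The MILL genes lie on chromosome 7. Their stretches are 120 bases long, on the plus strand at chr7:18245097-18245216 for Mill1 and chr7:18839716-18839835 for Mill2. They have no capitals because none of the exact NF-kB, GAS and ISRE letters occurred in the 250 bases before either start. Other forms of these elements were not searched. The Mill1 stretch holds gggaattttccc, which is close to the NF-kB letters but no match, and whether it is such an element was not tested.
Mill1: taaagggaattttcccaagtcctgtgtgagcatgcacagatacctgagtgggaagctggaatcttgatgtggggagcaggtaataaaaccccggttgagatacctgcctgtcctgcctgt
Mill2: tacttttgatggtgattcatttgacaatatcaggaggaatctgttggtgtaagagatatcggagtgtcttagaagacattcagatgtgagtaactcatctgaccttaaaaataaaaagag

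The longest run common to the 250 bases of both MILL promoters was 8 bases, a run held by 4.09% of all promoters. CCAAT, a core promoter element searched on both strands, occurred in H2-Q4, H2-Q7, H2-T23 and H2-M3 and in 33.8% of promoters, but in neither MILL promoter nor that of Mr1. GAGGAA, a core of sites for ETS factors such as PU.1 and Spi-B, occurred in Mill2 and H2-M3 and in 23.3% of promoters. A match is a description of letters only.

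Mill1 showed the largest difference of the 8 genes. Its level was 22.6, 20.4 and 22.2 TPM in the LIGHT libraries, against 2.77, 1.62 and 1.22 TPM in the control libraries. Every LIGHT library lay far above every control library, and the LIGHT libraries differed among themselves by 1.11-fold from lowest to highest, against 2.27-fold in control libraries. By its mean Mill1 was 11.6-fold higher in LIGHT tumours, a difference of 3.02 on the log2(TPM + 1) scale (SE 0.19), which understates the change of low genes. By this difference Mill1 stood at rank 7 from the top among 13167 genes tested. In LIGHT tumours it lay above Mr1 and Mill2, and in control tumours below both. The gene spans bases 18245347 to 18266092 of chromosome 7 (GRCm38).

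Mill2, 573874 bases further along the same strand, differed by less. It was at 10.0, 7.15 and 6.41 TPM in LIGHT libraries, against 3.01, 3.17 and 2.95 TPM in control libraries. The groups did not overlap, and the LIGHT libraries were the more spread. The means were 7.86 ± 1.91 TPM in LIGHT tumours and 3.04 ± 0.11 TPM in control tumours (SD, n = 3 each), a ratio of 2.58 and a difference of 1.11 (SE 0.16) on the log2(TPM + 1) scale. Of the MILL pair, Mill1 was the tighter in LIGHT libraries and Mill2 the tighter in control libraries.

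The nonclassical H2 genes were the most abundant. H2-T23 (Qa-1) was at 681, 592 and 509 TPM in LIGHT libraries, against 391, 462 and 401 TPM in control libraries. The groups did not overlap, although the lowest LIGHT library lay close to the highest control library. The mean ratio was 1.42, with a log2 difference of 0.50 (SE 0.12). H2-Q7 (Qa-2) was at 405, 347 and 346 TPM in LIGHT libraries, against 277, 290 and 230 TPM in control libraries. It too had no overlap, with a ratio of 1.38 and a log2 difference of 0.46 (SE 0.11).

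H2-Q4, the neighbour of H2-Q7 and known as Qb-1, went against this. It was at 518, 470 and 394 TPM in LIGHT libraries, against 459, 495 and 449 TPM in control libraries. The control range fell inside the LIGHT range, and the log2 difference was -0.03 (SE 0.11). The level of H2-Q4 was the highest of the 8 in control tumours, at 468 ± 24.0 TPM, while H2-T23 was highest in LIGHT tumours, at 594 ± 85.9 TPM (SD, n = 3 each). The ranges of these 2 genes overlapped in both groups. Library by library, H2-T23 lay above H2-Q4 in each LIGHT library and below it in each control library.

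H2-M3, which presents formylated peptides, was at 41.8, 35.2 and 30.9 TPM in LIGHT libraries, against 21.7, 25.6 and 15.5 TPM in control libraries. The groups did not overlap. The ratio was 1.72 and the log2 difference 0.77 (SE 0.19). Of the H2 genes among the 8 it had the largest difference and by far the lowest level.

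The non-peptide presenters were low. Cd1d1 was at 2.31, 2.35 and 2.05 TPM in LIGHT libraries, against 1.02, 0.72 and 0.58 TPM in control libraries. All LIGHT libraries and 1 control library reached 1 TPM, so the gene passed the filter on low values through the LIGHT libraries. The groups did not overlap, with a ratio of 2.89 and a log2 difference of 0.87 (SE 0.13). Mr1 was at 11.6, 8.37 and 8.94 TPM in LIGHT libraries, against 6.69, 8.91 and 6.88 TPM in control libraries. Those ranges overlapped, and the log2 difference was 0.32 (SE 0.15).

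**Figure D1:**
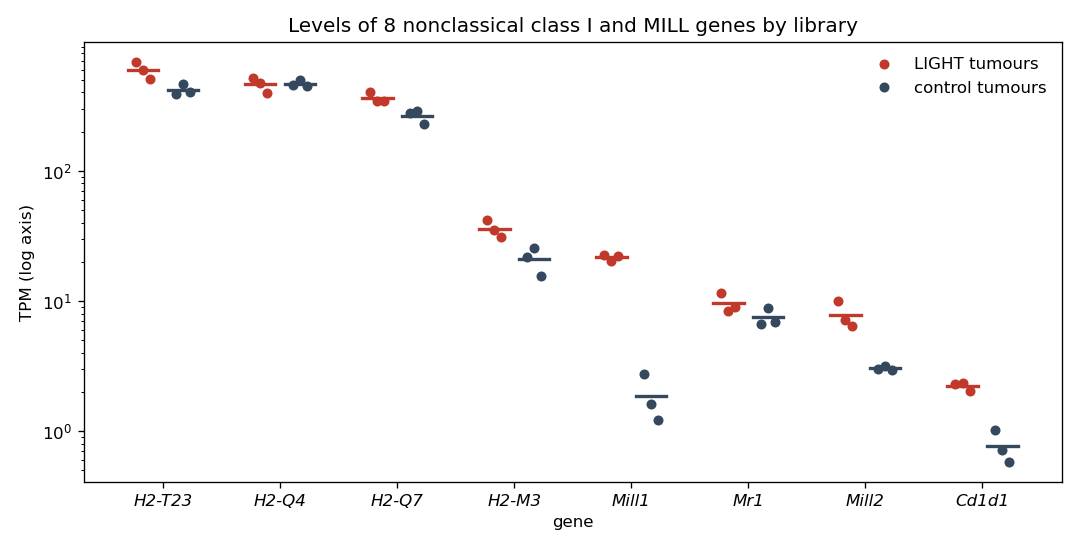
TPM of the 8 genes (log axis), 1 point per library and a line at the group mean, LIGHT tumours left of control tumours for each gene. The Mill1 libraries stand far apart by group, at 20.4 TPM or more in LIGHT and 2.77 TPM or less in control tumours, whereas the H2-Q4 and Mr1 libraries overlap.

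In order of mean level in LIGHT tumours the genes ran H2-T23, H2-Q4, H2-Q7, H2-M3, Mill1, Mr1, Mill2 and Cd1d1. Mr1 and Mill2 overlapped in LIGHT libraries, as did H2-T23 and H2-Q4, and H2-Q4 and H2-Q7. In control tumours the order was H2-Q4, H2-T23, H2-Q7, H2-M3, Mr1, Mill2, Mill1 and Cd1d1, and of its neighbours only H2-Q4 and H2-T23 overlapped. The 8 genes summed to 1320 to 1693 TPM in LIGHT libraries and 1108 to 1287 TPM in control libraries. H2-Q4 made up 29.9% to 31.7% of that sum in LIGHT libraries and 38.4% to 40.6% in control libraries, and Mill1 made up 1.34% to 1.68% in LIGHT libraries and 0.11% to 0.238% in control libraries.

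All 8 genes passed the filter of at least 1 TPM in at least 3 libraries. Cd1d1 passed it through the LIGHT libraries, with only 1 control library at 1 TPM, so its call below is partly set by that filter. A limma fit across all tested genes called 6 of the 8 higher in LIGHT tumours (adjusted p under 0.05) and 0 lower, with 17.7% of all tested genes called higher, 5.41% called lower and 23.1% called in either direction. At an unadjusted p under 0.05 the counts were also 6 and 0. In the same 6 genes all LIGHT libraries lay above all control libraries, as they did in 29.6% of tested genes. Mr1 and H2-Q4 were not called. The median log2 difference was 0.63 over the 8 genes and 0.09 over all tested genes. Nothing is read from these counts, since the genes were named with this contrast known. The count of 6 was 3 without LIGHT replicate 1 and 3 without control replicate 3. The calls of H2-Q7, H2-T23 and H2-M3 held in 9, 7 and 10 of 14 other settings, which describes the fit and is no independent support. Without LIGHT replicate 1 or control replicate 3 none of these 3 was called. The call of H2-Q7 was also lost without LIGHT replicate 3, that of H2-M3 without LIGHT replicate 2, and that of H2-T23 without LIGHT replicate 2 or control replicate 1. With quantile normalization neither H2-Q7 nor H2-T23 was called, and with trimmed-mean scaling H2-T23 was not. With no filter on low values none of the 3 was called.

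**Figure D2:**
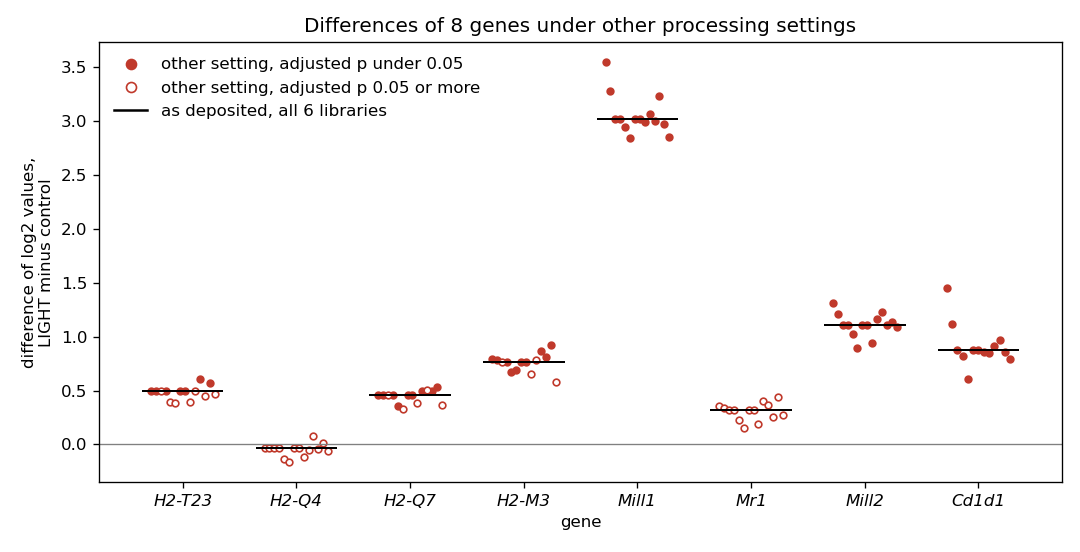
Difference of log2 values, LIGHT minus control, for the 8 genes. Each point is 1 other setting (pseudocount, filter, scaling, a library left out, a replicate block), filled where the limma adjusted p was under 0.05, and the line is the value as deposited with all 6 libraries. Mill1 ranges from 2.85 to 3.55 and H2-Q4 lies on both sides of 0.

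H2-M2, a class I gene that lies 206367 bases beyond H2-M3 in the same H2-M region, was among 25 other class I-like genes. They were listed for their place in the family and with earlier results of these data known. The level of H2-M2 was 70.3, 57.1 and 51.9 TPM in LIGHT libraries, against 8.29, 7.74 and 11.01 TPM in control libraries. The groups were far apart. H2-M2 was 6.63-fold higher by its mean, with a log2 difference of 2.60 (SE 0.16, limma adjusted p = 0.000283), at rank 13 of 13167 from the top. Its difference lay between 2.48 and 2.74 in 14 other settings and was called in all of them.

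Of those 25 listed genes, 21 were in the data and 11 passed the filter. Limma called 17.7% of all tested genes higher and 5.41% lower. Among the 11, it called 5 higher and 0 lower (5 and 2 at an unadjusted p under 0.05), with a median log2 difference of 0.35. Besides H2-M2 these were Fcgrt, the neonatal Fc receptor, at 18.7 ± 5.28 TPM in LIGHT tumours and 9.63 ± 1.2 TPM in control tumours, and Hfe, the iron-regulating class I chain, at 6.35 ± 0.98 TPM in LIGHT and 4.46 ± 0.33 TPM in control tumours. The other risers were H2-T24, at 8.48 ± 0.81 TPM in LIGHT and 6.17 ± 0.10 TPM in control tumours, and H2-Q6, a close relative of H2-Q7, at 397 ± 48.2 TPM in LIGHT and 298 ± 24.0 TPM in control tumours (SD, n = 3 each). Their limma adjusted p were 0.0195 for Fcgrt, 0.0468 for Hfe, 0.0291 for H2-T24 and 0.0343 for H2-Q6, and each lost its call in 5 or more of 14 other settings, some of them with 1 library left out. The count of 5 was 2 without LIGHT replicate 2, 3 without LIGHT replicate 3, and 1, 3 and 1 without control replicates 1, 2 and 3. It was 2 with trimmed-mean scaling and 1 with quantile normalization.

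Unlike H2-T24, the H2-T genes H2-T22 and H2-T10 did not pass the threshold, and H2-T3 was too low to be tested. H2-T22, whose product is recognised by gamma delta T cells, averaged 337 ± 41.9 TPM in LIGHT tumours and 301 ± 32.0 TPM in control tumours (limma adjusted p = 0.353). H2-T10, recognised by the same cells, averaged 20.7 ± 3.07 TPM in LIGHT and 23.2 ± 3.07 TPM in control tumours (limma adjusted p = 0.423). Of the NKG2D ligands in the list, Raet1e and H60c were tested and not called: Raet1e averaged 4.86 ± 0.71 TPM in LIGHT and 9.07 ± 3.11 TPM in control tumours, and H60c averaged 15.2 ± 5.08 TPM in LIGHT and 23.8 ± 3.82 TPM in control tumours (SD, n = 3 each), with limma adjusted p of 0.0524 and 0.069. The other ligands were too low to be tested. Raet1d averaged 0.483 ± 0.153 TPM in LIGHT and 0.273 ± 0.0603 TPM in control tumours, Ulbp1 averaged 0.663 ± 0.133 TPM in LIGHT and 0.267 ± 0.0635 TPM in control tumours, and H60b was at 0.11, 0.1 and 0.11 TPM in LIGHT libraries and listed at 0 in control libraries. In each of these 3 the LIGHT libraries lay above the control libraries. The NKG2D ligands were picked once their values had been seen. Raet1e and H60c were both called lower with trimmed-mean scaling, quantile normalization or the replicate block, and without control replicate 2 (Raet1e) or LIGHT replicate 1 (H60c).

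**Figure D3:**
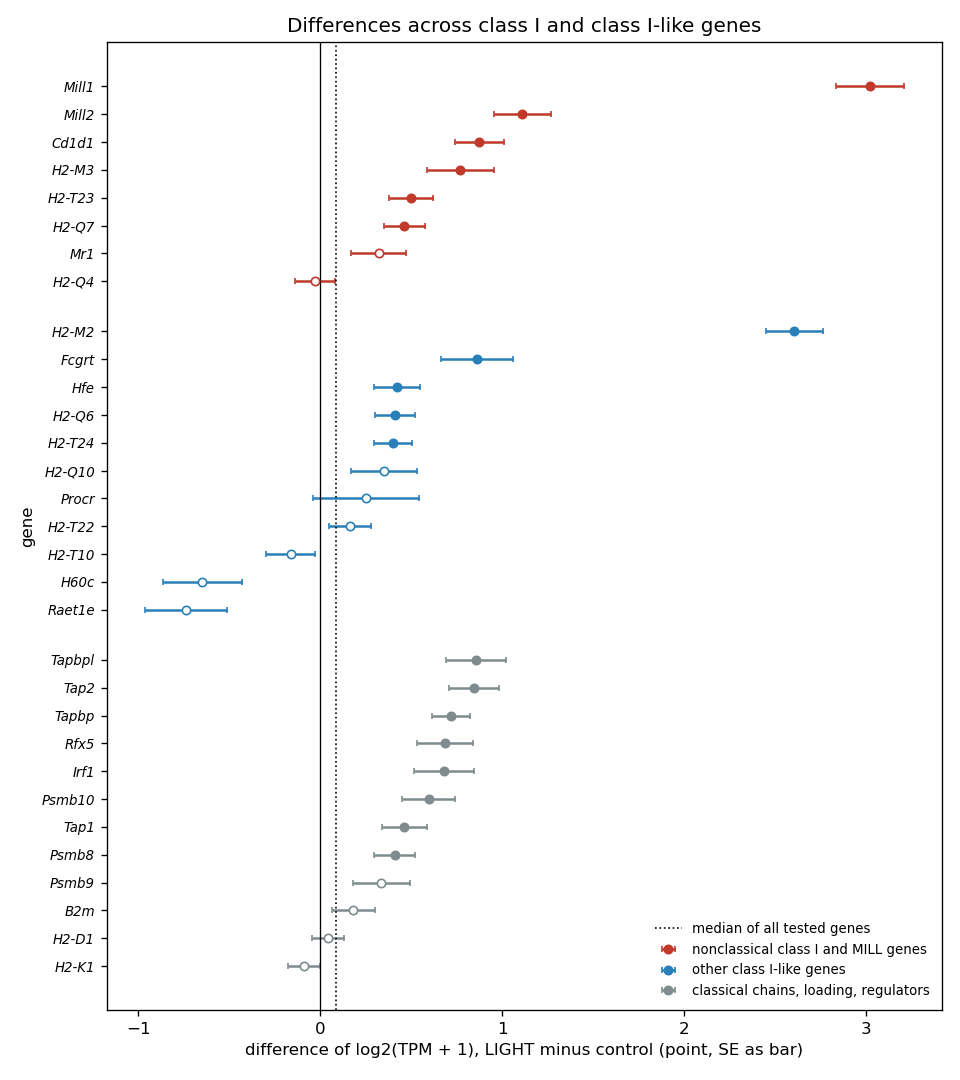
Difference of log2(TPM + 1), LIGHT minus control, with its SE, for the 8 genes, 11 other class I-like genes and part of the classical list. That part is H2-K1, H2-D1, B2m, Psmb8, Psmb9, Psmb10, Tap1, Tap2, Tapbp, Tapbpl, Rfx5 and Irf1. Most uncalled genes of the classical chain, loading and regulator list are not drawn. Filled points have a limma adjusted p under 0.05 and the dotted line is the median of all tested genes, 0.09. Mill1 and H2-M2 stand apart to the right, while H2-K1, H2-D1 and B2m lie near 0.

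The classical chains differed little. H2-K1 averaged 3705 ± 296 TPM in LIGHT tumours and 3935 ± 76.2 TPM in control tumours, H2-D1 averaged 2306 ± 157 TPM in LIGHT and 2237 ± 124 TPM in control tumours, and B2m averaged 12157 ± 1670 TPM in LIGHT and 10660 ± 498 TPM in control tumours (SD, n = 3 each). None of the 3 was called (limma adjusted p = 0.504, 0.761 and 0.31), nor was the immunoproteasome subunit Psmb9 (limma adjusted p = 0.166). Across all tested genes, 17.7% were called higher and 5.41% lower. Of 20 classical chain, peptide loading and regulator genes, limma called 9 higher and 0 lower (10 and 1 at an unadjusted p under 0.05). Their median log2 difference was 0.37. Those called included Tap1, Tap2, Tapbp, Tapbpl, Psmb8, Psmb10, Rfx5 and Irf1, which carry, cut or load peptides or regulate those genes. Also not called were Erap1, Calr, Canx, Pdia3, Nlrc5, Rfxap and Rfxank. Nlrc5 lay above in every LIGHT library (limma adjusted p = 0.0774) and Rfxap below (limma adjusted p = 0.106). Genes of this list other than H2-K1, H2-D1, B2m and Psmb9 were named after their values were seen. The count of 9 was 5 without LIGHT replicate 1, LIGHT replicate 2 or control replicate 1, and 3 without control replicate 3. It was 5 with quantile normalization or no filter. Psmb9 was called without control replicate 2.

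Set against B2m in the same library, H2-T23 and H2-Q4 differed in opposite directions, which was not so against H2-K1. H2-T23 stood at 4.94, 4.85 and 4.87 TPM per 100 TPM of B2m in LIGHT libraries, against 3.83, 4.37 and 3.58 in control libraries. The LIGHT values were nearly equal to one another although H2-T23 itself differed by 1.34-fold between those libraries. H2-Q4 stood at 3.76, 3.84 and 3.77 TPM per 100 TPM of B2m in LIGHT libraries, against 4.50, 4.68 and 4.01 in control libraries, so here the LIGHT libraries lay below. H2-K1 lay below on the B2m scale too, at 30.6 ± 1.80 TPM in LIGHT and 37.0 ± 2.07 TPM in control tumours per 100 TPM of B2m. Per 100 TPM of H2-K1, H2-Q4 averaged 12.4 ± 0.72 TPM in LIGHT and 11.9 ± 0.38 TPM in control tumours with overlap, and H2-T23 averaged 16.0 ± 1.04 TPM in LIGHT and 10.6 ± 0.78 TPM in control tumours without it. H2-M3 averaged 0.296 ± 0.0076 TPM per 100 TPM of B2m in LIGHT tumours and 0.198 ± 0.0531 in control tumours. Mill1 averaged 0.181 ± 0.0271 in LIGHT tumours and 0.0178 ± 0.0084 in control tumours on that scale (SD, n = 3 each).

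The libraries of a group ordered the 8 genes in much the same way. LIGHT replicate 1 was the highest LIGHT library for 7 of the 8 genes, as it was for 55% of all tested genes, and LIGHT replicate 3 was the lowest for 6 of 8, against 23.6% of tested genes. Control replicate 3 was the lowest control library for 6 of 8 genes, against 50.5% of tested genes, and control replicate 2 was the highest for 6, against 29.1%. Among the 20 classical chain, loading and regulator genes LIGHT replicate 1 was the highest LIGHT library for 20, and control replicate 3 the lowest control library for 18. The genes share these libraries, so the agreement between genes is a description of the libraries.

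Most tested receptors and partners of these molecules on lymphocytes were higher in LIGHT tumours. Of 12 listed, 9 passed the filter, and limma called 8 higher and 0 lower (9 and 0 at an unadjusted p under 0.05). Their median log2 difference was 1.38. The shares over all tested genes were 17.7% called higher and 5.41% lower. Pirb, an inhibitory receptor for class I chains, overlapped between the groups and was not called (limma adjusted p = 0.0615), and Klrc2, Zbtb16 and Klrb1c were too low to be tested. Klrd1, the CD94 chain that binds Qa-1, averaged 39.1 ± 2.39 TPM in LIGHT tumours and 12.6 ± 8.14 TPM in control tumours (log2 difference 1.71, limma adjusted p = 0.0129). Its NKG2A partner Klrc1, named after its values were seen, averaged 23.4 ± 3.14 TPM in LIGHT and 8.58 ± 4.37 TPM in control tumours (log2 difference 1.43, limma adjusted p = 0.0112).

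Hcst, the signalling adaptor of NKG2D, averaged 23.9 ± 3.99 TPM in LIGHT and 10.2 ± 2.07 TPM in control tumours (SD, n = 3 each). The coreceptor chains Cd8a and Cd8b1 also rose, at 28.8 ± 2.97 and 51.9 ± 1.18 TPM in LIGHT tumours, against 9.48 ± 7.74 and 18.3 ± 13.7 TPM in control tumours. Control replicate 2 was the highest control library for both, and their calls were lost without any of LIGHT replicates 2 and 3 and control replicates 1 and 3, and that of Cd8a also without LIGHT replicate 1. Zbtb16, the transcription factor of natural killer T and mucosal-associated invariant T cells, stayed under 1 TPM throughout, averaging 0.6 ± 0.19 TPM in LIGHT and 0.387 ± 0.18 TPM in control tumours, and was not tested.

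Among 12 genes of CD1 lipid loading and endosomal trafficking, 3 rose and 2 fell, with a median log2 difference of -0.10. Over all tested genes 17.7% were called higher and 5.41% lower, and nothing particular to this list is read from its counts. Psap, the saposin precursor that loads lipids onto CD1d, averaged 637 ± 56.7 TPM in LIGHT tumours and 353 ± 12.3 TPM in control tumours (limma adjusted p = 0.0016). Gm2a and Npc2, lipid transfer proteins of the lysosome, rose too, at 74.5 ± 10.4 and 82.9 ± 7.57 TPM in LIGHT tumours, against 39.1 ± 8.23 and 64.7 ± 3.47 TPM in control tumours. The call of Npc2 was lost with both other scalings and without any 1 of LIGHT replicates 1 and 2 and control replicates 2 and 3. Ctsl, cathepsin L, fell to 163 ± 20.9 TPM in LIGHT tumours, against 306 ± 24.2 TPM in control tumours (limma adjusted p = 0.0026). Mttp, the transfer protein that loads CD1d in the endoplasmic reticulum, averaged 4.79 ± 0.77 TPM in LIGHT and 5.07 ± 0.35 TPM in control tumours (limma adjusted p = 0.705). Mttp was named after its values were seen.

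Leukocyte marker levels differed between the groups. The 4 leukocyte markers Ptprc, Coro1a, Laptm5 and Cd53 summed to 266 to 300 TPM in LIGHT libraries and 114 to 178 TPM in control libraries. All 4 were called higher, and the counts of calls below stand beside 17.7% called higher over all tested genes. The 5 T cell markers in the data summed to 142 to 177 TPM in LIGHT and 39.5 to 87.6 TPM in control libraries (5 of 5 tested called higher), and the 6 macrophage markers to 953 to 1317 TPM in LIGHT and 596 to 690 TPM in control libraries (4 of 6 called higher). The natural killer and dendritic lists of 4 markers each stayed at 6.43 to 7.92 and 6.36 to 6.9 TPM in LIGHT libraries, against 3.21 to 3.49 and 2.49 to 3.03 TPM in control libraries. Of the 3 natural killer markers tested, 2 were called higher, Ncr1 and Klre1. Both passed the filter through the LIGHT libraries, with control means of 0.463 and 1.03 TPM, so their calls are no separate support. The third, Eomes, was not called (log2 difference -0.20). Ccr7, the 1 dendritic marker tested, was called higher. Of the B cell markers Ms4a1 and Pax5 did not exceed 0.05 TPM in any library, and the 5 summed to 1.35 to 1.83 TPM in LIGHT and 0.3 to 0.98 TPM in control libraries.

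Endothelial, fibroblast and skeletal muscle lists of 4 markers each had 0 genes called by limma (1, 0 and 1 at an unadjusted p under 0.05), and their sums overlapped between the groups. The endothelial list summed to 28.9 to 59.6 TPM in LIGHT and 16.8 to 33.6 TPM in control libraries, the fibroblast list to 233 to 401 TPM in LIGHT and 200 to 295 TPM in control libraries, and the muscle list to 2178 to 3478 TPM in LIGHT and 1516 to 2719 TPM in control libraries. Of the hair follicle markers Krt25, Krt27, Krt71, Krt72 and Lhx2 did not exceed 0.16 TPM in any library, and Tchh averaged 78.1 TPM in LIGHT and 70.4 TPM in control tumours. Of the thymic medullary markers Aire, Fezf2 and Psmb11 did not exceed 0.23 TPM, and Foxn1 averaged 6.08 TPM in LIGHT and 4.79 TPM in control tumours. The part of cell composition in the levels of the 8 genes was not tested.

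Per 100 TPM of the summed leukocyte markers, Mill1 stood at 7.89, 6.79 and 8.35 TPM in LIGHT libraries, against 2.43, 0.909 and 0.858 TPM in control libraries. It remained above in every LIGHT library. Mill2, H2-M3 and Cd1d1 overlapped between the groups on that scale, and H2-T23, H2-Q7, H2-Q4 and Mr1 lay below in every LIGHT library. H2-T23 averaged 209 ± 25.2 in LIGHT tumours and 295 ± 43.1 in control tumours on it (SD, n = 3 each). Per 100 TPM of the summed squamous markers, H2-Q4 overlapped between the groups and the other 7 genes lay above in every LIGHT library, with mean ratios from 1.5 for Mr1 to 14.1 for Mill1. As that sum is mostly Krt5 and Krt14, the scale follows these keratins rather than epithelium as a whole.

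Some of these transcripts resemble one another, and no source used here states the read length or how reads with several matches were counted. Of the 50-base windows of their GENCODE M21 protein-coding transcripts, 39.2% of H2-Q4, 34.9% of H2-Q7, 29.8% of H2-T23 and 25.1% of Cd1d1 also occurred in a transcript of another gene. The shares were 0.58% for H2-M3, 0.49% for Mill1, 0.05% for Mill2 and 0% for Mr1. With 100-base windows they were 13.9%, 17.2%, 7.28% and 13.8% for the first 4 genes and 0% for the other 4. Windows were matched on either strand. H2-Q4 shared 16.06% of its 50-base windows with the antisense gene Gm11131, 7.68% with H2-Q6 and 4.53% with Zfp488, which is no class I gene. H2-Q7 shared 17.02% of its 50-base windows with H2-Q6, and Cd1d1 shared 25.1% with Cd1d2. The levels of H2-Q4, H2-Q7, H2-T23 and Cd1d1 are thus uncertain in that respect. H2-M2 shared 1.61% of 50-base windows and 0% of 100-base windows.

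**Figure D4:**
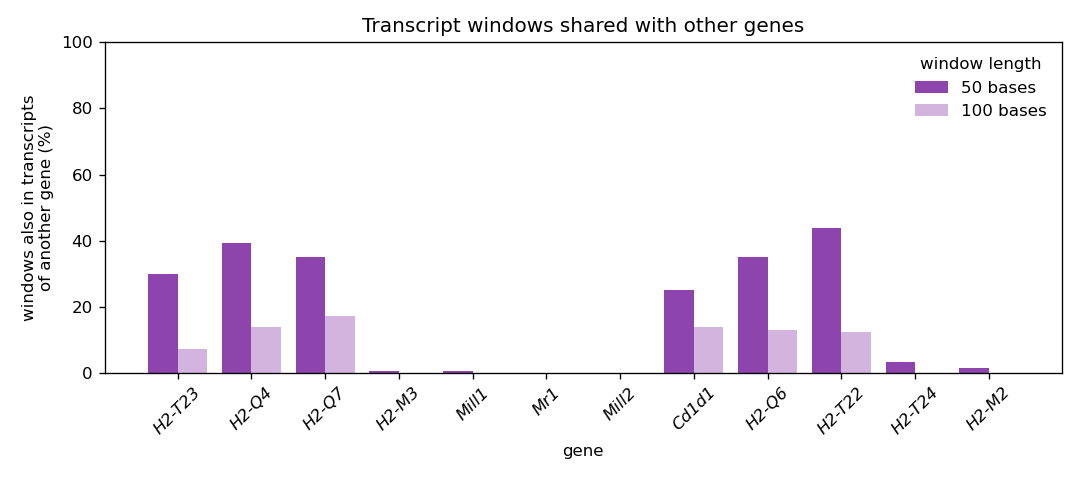
Percent of transcript windows of 50 and 100 bases that also occur in transcripts of another gene, for the 8 genes and 4 relatives. H2-Q4, H2-Q7, H2-T23, Cd1d1, H2-Q6 and H2-T22 share 25.1% or more of their 50-base windows, and Mill1, Mill2, H2-M3, Mr1, H2-T24 and H2-M2 share 3.17% or less.

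H2-T23 is overlapped along its whole 3083 bases by the antisense gene A930015D03Rik, and H2-Q4 over 676 bases by the antisense gene Gm11131. Neither antisense gene is among the genes analysed here, and no source used here says whether strand was kept, so their reads cannot be told apart from those of the H2 genes.

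Of the nearest tested genes outside the 8, Pglyrp1, H2-Q6, H2-T24, Ubd, Gabbr1, H2-M2, Lrba, Dclk2 and Glul were called higher and Tcf19 and Ier5 lower. Ppp5c, Psg16, Ccdc61, Ddx39b, H2-D1, H2-Q10, Gnl1, H2-T22, Gm11127, Olfr99, Kirrel, Etv3, Stx6 and Xpr1 were not called. As 17.7% of all tested genes were called higher and 5.41% lower, nothing is read from the number of neighbours called. On chromosome 17, Ubd, an interferon- and TNF-responsive ubiquitin-like gene 74125 bases before H2-M3, averaged 312 ± 137 TPM in LIGHT tumours and 80.9 ± 3.39 TPM in control tumours (limma adjusted p = 0.00451). Gabbr1, a GABA receptor subunit 195153 bases before H2-M3, averaged 10.08 ± 1.33 TPM in LIGHT and 6.67 ± 1.00 TPM in control tumours (limma adjusted p = 0.0286), a call lost without any 1 of LIGHT replicates 1 and 3 and control replicates 1 and 3. Both tested genes before Cd1d1 on chromosome 3 were higher. Dclk2, a kinase gene 74982 bases away, averaged 3.37 ± 0.54 TPM in LIGHT and 1.86 ± 0.22 TPM in control tumours (limma adjusted p = 0.0174), and Lrba, a vesicle trafficking gene, averaged 6.77 ± 0.57 TPM in LIGHT and 4.47 ± 0.08 TPM in control tumours (limma adjusted p = 0.0127). Both calls were lost without LIGHT replicate 3, and that of Dclk2 also without control replicate 3. Pglyrp1, a peptidoglycan recognition gene 5929 bases after Mill2, averaged 101 ± 24.6 TPM in LIGHT and 62.0 ± 5.37 TPM in control tumours (limma adjusted p = 0.0315). That call held in 6 of 14 other settings and was lost without any 1 library other than LIGHT replicate 1.

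The next tested gene, Ccdc61, averaged 12.4 ± 0.66 TPM in LIGHT and 12.3 ± 0.57 TPM in control tumours. On the other side of Mill1 the nearest tested gene, Psg16, lay 1111897 bases away and averaged 11.2 ± 0.48 TPM in LIGHT and 12.8 ± 0.47 TPM in control tumours. Psg16 was called lower with both other scalings only. Tcf19, 68961 bases after H2-Q7, fell to 37.6 ± 5.55 TPM in LIGHT tumours, against 52.1 ± 2.07 TPM in control tumours (limma adjusted p = 0.0236). Its call was lost without any 1 of LIGHT replicates 2 and 3 and control replicates 2 and 3. Beside Mr1, Glul rose and Ier5 fell, at 95.2 ± 13.7 and 40.0 ± 1.64 TPM in LIGHT tumours, against 60.9 ± 6.38 and 52.7 ± 0.86 TPM in control tumours (SD, n = 3 each).

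The genes with the most similar profile were found by the root mean square distance between log2(TPM + 1) values, each centred on its own mean over the 6 libraries. The nearest to Mill1 were Spib, an ETS transcription factor, at a distance of 0.25, Stra6, a vitamin A transporter, at 0.27, and the granzyme Gzmd, at 0.33. Spib was at 16.7, 12.1 and 13.6 TPM in LIGHT libraries, against 0.66, 0.79 and 0.61 TPM in control libraries. It was thus among the genes compared only through its LIGHT libraries. Stra6 was at 159, 153 and 166 TPM in LIGHT libraries, against 25.3, 26.4 and 21.9 TPM in control libraries. It shared with Mill1 a tight LIGHT group far above the control group.

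Mill2 lay nearest to Sorbs2 and to Lgals3bp, both at 0.07. Lgals3bp, a secreted glycoprotein gene, was at 287, 214 and 177 TPM in LIGHT libraries, against 92.8, 106 and 104 TPM in control libraries. As for Mill2, LIGHT replicate 1 was the highest and LIGHT replicate 3 the lowest of the LIGHT libraries. H2-T23 lay nearest to the interferon-induced gene Ifitm3, at 0.04, and Psmb8, an immunoproteasome subunit, was also near at 0.06. H2-M3 lay nearest to Irf8, a transcription factor of myeloid cells, at 0.07. Mr1 had Irf9, an interferon-activated transcription factor, among its nearest genes at 0.05. Cd1d1 lay nearest to Tgfb2 at 0.06, and H2-Q7 to Efemp1 at 0.03. These distances describe 6 libraries in 2 groups, so genes with a like difference between the groups come out near one another.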

How the data were processed

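RNA of 3 LIGHT and 3 control tongue tumours was sequenced after ribosomal RNA depletion, per the labels' protocols. The deposited values are TPM per gene, in 1 column per library per the file headers, each summing to about 1000000. HISAT, Bowtie2 and build GRCm38.p6 are listed, without version, per the submitters' processing notes. No source used here gives the quantifier, annotation or filters, and depth is unknown.

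The 8 genes, the lists and the tests were chosen with earlier results of these data known. The fit, in limma 3.58.1 (R 4.3.3), took log2(TPM + 1) of the 13167 genes that reached 1 TPM in 3 or more libraries (mean-variance trend, two-sided, Benjamini-Hochberg over all tested genes, adjusted p under 0.05), without a replicate block. The named genes are the 8, up to 4 of each list by highest mean, each called other class I-like gene, the 2 nearest tested genes on each side, and the 3 nearest profiles, with exceptions stated. The fit was also run on simulated data in which each gene varied on its own, without shifts common to a library. That run cannot tell how such shifts affect the calls here, and nothing is read from it. Coordinates and transcripts are from GENCODE M21 (GRCm38) and promoters from RefSeq GRCm38.p6. Figures were drawn with matplotlib 3.10.9. Some genes of the lists are counted but not reported singly here.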

Additional observations from a re-analysis of the deposited data

How the results depend on the processing

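The 14 other settings were a pseudocount of 0.1 or 0.5, a filter of 5 TPM or none, unweighted trimmed-mean scaling (per side, 30% of ratios and 5% of levels trimmed), quantile normalization, limma without the trend, the replicate number as a block, and each library left out. Cd1d1 could not be fitted with the filter at 5 TPM. The median log2 difference of all tested genes was 0.09 as deposited, -0.01 with trimmed-mean scaling and -0.04 with quantile normalization, where higher calls were 51% and 43.6% of all calls, against 76.6%. After quantile normalization the differences of Mill1, Mill2, H2-M3 and Cd1d1 were 2.85, 0.89, 0.69 and 0.61. The cause of the changes below was not tested.

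Over all genes, 2325 were higher and 712 lower. There were 1399 higher and 1811 lower genes after quantile normalization, and 1731 lower genes after trimmed-mean scaling. Leaving out a library gave 1264 to 2027 higher and 325 to 791 lower genes. Of the 8 genes, 6 were higher, against 3 with no filter and 3 to 6 without a library. The difference of H2-Q4 ran from -0.12 to 0.08 as libraries were left out, above 0 without LIGHT replicate 3 (0.078) or control replicate 2 (0.01).

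Of the other class I-like genes, 2 were higher and 2 lower after trimmed-mean scaling, 1 higher and 2 lower after quantile normalization, and 1 to 4 higher and 0 to 1 lower without a library. Of the classical chain, loading and regulator genes, 5 were higher with no filter, 5 higher and 1 lower after quantile normalization, 1 lower after trimmed-mean scaling, and 3 to 10 higher without a library. Of the lymphocyte receptors 5 were higher with no filter and 6 to 8 without a library. Of the CD1 loading genes 1 was lower with no filter and 1 to 2 without a library.

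No pairing of samples by replicate number was clear. Deviations from the group means correlated across genes at 0.37, 0.237 and 0.01 for numbers 1, 2 and 3, and LIGHT replicate 2 correlated best with control replicate 3 (0.332). With 3 libraries per group the deviations are tied to one another, so these values neither show nor exclude a pairing. With the replicate block 2325 genes were higher and 907 lower, 6 of the 8 genes were higher, and 2 other class I-like genes were lower, against 0. TPM keeps no counts, so the precision of low genes such as Cd1d1 could not be given.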
